A study of Mus musculus with 6 samples.

Results

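The loci described here are those of 6 regulators of skeletal muscle development, Myod1, Myf5, Myf6, Myog, Pax7 and Pax3, in mouse embryonic fibroblasts (MEFs), primary connective-tissue cells grown from embryos. A listed peak was taken as a member when it overlapped by at least 1 bp one of 5 windows of the mouse build mm9. The windows were chromosome 7, 53629000 to 53637000 for Myod1, chromosome 10, 106916000 to 106938000 for Myf5 and Myf6 together, chromosome 1, 136183000 to 136193000 for Myog, chromosome 4, 139290000 to 139393000 for Pax7, and chromosome 1, 78095000 to 78197000 for Pax3. By this rule 7 of the 38760 peaks in the 6 deposited lists were members, and all 7 were H3K4me3 peaks. The windows were chosen by gene, with the presence, number and width of their peaks in both conditions already known, so these counts and widths are a description and were not tested.

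Chromatin immunoprecipitation followed by sequencing (ChIP-seq) had been done on C57BL/6 MEFs exposed to a chemical combination that the labels call 6TCF, whose components the labels do not give, and on untreated MEFs, both on day 6. Each condition had 1 library each of H3K4me3, of H3K27me3 and of input DNA, which is sheared chromatin that was not immunoprecipitated. Per the protocol given for every sample, cells were moved to a medium with 15% serum and 40 ng/ml basic fibroblast growth factor; whether untreated cells received it is not stated separately. The antibody field names other histone marks than the titles do, namely H3K4me2 for the libraries titled H3K4me3 and H3K4me1 for those titled H3K27me3. The titles were followed, and which mark was precipitated is uncertain throughout. The H3K4me3 lists held 18185 treated and 17168 untreated peaks, the H3K27me3 lists 821 and 1242, and the input lists 604 and 740. The files give positions only, so read depth is unknown, peak strength could not be compared, and the mark may be present in a window that holds no listed peak.

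H3K4me3 marks active and poised promoters, whereas H3K27me3 is laid down by Polycomb repressive complexes and often covers developmental regulators in cells that do not use them. Pax3 and Pax7 are paired-box transcription factors of muscle progenitors. Pax7 marks the satellite cells, the stem cells of adult muscle. Myod1, Myf5, Myf6 and Myog are basic helix-loop-helix factors that bind E-box sequences: Myf5 and Myod1 commit cells to the muscle lineage, Myog drives terminal differentiation, and Myf6 acts in determination as well as in later muscle. Myf5 and Myf6 are direct neighbours and shared 1 window here. The cells' identity could not be checked against fibroblast markers, and other genes of skeletal myogenesis were not evaluated, because no mm9 annotation was used here.

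Promoter sequences from RefSeq were found for 3 of the 6 genes, Pax7, Myog and Myf5. The set used held none for Myod1, Myf6 and Pax3, so these genes are not in the comparison. The 250 bases before the annotated start are shown because H3K4me3 is a promoter mark. The windows of the genes shown differed in listed peaks, 3 for Pax7 in treated cells and none for Myog and Myf5. A link between sequence and peaks was not tested, and Pax3, the other gene with peaks in its window, is not shown. Each sequence is written 5′ to 3′ in the direction of transcription, with CG dinucleotides in capitals. Positions of these sequences are in the build GRCm38.p6 and cannot be set against the mm9 positions of the peaks.
Pax7 (GRCm38.p6 chr4:139832969-139833218, minus strand): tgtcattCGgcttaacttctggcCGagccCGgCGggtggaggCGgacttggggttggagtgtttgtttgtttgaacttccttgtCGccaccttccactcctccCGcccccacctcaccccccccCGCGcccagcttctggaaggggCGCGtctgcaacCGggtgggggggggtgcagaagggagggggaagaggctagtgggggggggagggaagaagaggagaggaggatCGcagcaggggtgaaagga
Myog (GRCm38.p6 chr1:134289754-134290003, plus strand): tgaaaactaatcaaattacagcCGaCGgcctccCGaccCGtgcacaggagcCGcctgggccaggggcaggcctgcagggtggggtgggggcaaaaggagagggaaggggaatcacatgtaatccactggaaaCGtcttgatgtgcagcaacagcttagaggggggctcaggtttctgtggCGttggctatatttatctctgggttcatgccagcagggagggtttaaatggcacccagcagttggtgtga
Myf5 (GRCm38.p6 chr10:107486135-107486384, minus strand): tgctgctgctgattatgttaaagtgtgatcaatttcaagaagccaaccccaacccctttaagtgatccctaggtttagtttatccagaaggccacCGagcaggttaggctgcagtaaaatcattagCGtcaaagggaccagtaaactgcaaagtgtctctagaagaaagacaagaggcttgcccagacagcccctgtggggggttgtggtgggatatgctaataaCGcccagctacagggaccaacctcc

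The Pax7 sequence held 13 CG dinucleotides and was 65.2% G and C. The Myog sequence held 7 and was 56.4% G and C, and the Myf5 sequence held 3 and was 48.8% G and C. Over 32851 RefSeq promoter sequences of the same length, from 27025 genes, the median was 6 CG dinucleotides. Fewer CG dinucleotides than in the Pax7 sequence were found in 68.5% of them, fewer than in Myog in 53.7% and fewer than in Myf5 in 29% of them. The 3 promoters thus lay above, near and below the middle of the table. The E-box pattern CANNTG, which reads the same on both strands, matched the Myog sequence as CACATG and CAGTTG, beginning 138 and 12 bases before the start. It matched neither the Pax7 nor the Myf5 sequence in this window. Of all promoter sequences 66.2% held at least 1 such match, so a match in this pattern is common.

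At Pax7 the treated list held 3 H3K4me3 peaks and the untreated list none. The treated peaks were at chromosome 4, 139376992 to 139378007 (1016 bp), 139383682 to 139384574 (893 bp) and 139388550 to 139389588 (1039 bp). They were 5.67 and 3.98 kb apart and spanned 12.6 kb. All 3 lay near the high-coordinate edge of the 103 kb window, with ends 15.0, 8.4 and 3.4 kb before it. RefSeq places Pax7 on the minus strand in GRCm38.p6, so the gene's start is at its high-coordinate end, but where that start falls in mm9 was not determined.

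The nearest untreated H3K4me3 peak was 196 kb from the first of the Pax7 peaks, 203 kb from the second and 208 kb from the third. In the whole lists 10.2% of treated H3K4me3 peaks had no untreated partner. The Pax7 peaks were narrow: their widths exceeded those of 14.5%, 9.96% and 15.4% of treated peaks, in order along the chromosome, and the median treated peak was 2026 bp. Narrow peaks were more often in 1 list only. Among treated peaks within 10% of the same width, 29.5% (403 of 1365), 42.3% (490 of 1158) and 27.6% (370 of 1339) had no untreated partner. A single unshared peak of this width was therefore common in the treated list.

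Runs of such peaks were few. Outside the mitochondrial genome, the treated list had 12 groups of at least 3 treated-only peaks with gaps of up to 20 kb, and the Pax7 group was 1 of 5 with no untreated peak inside it. The untreated list had 3 such groups of untreated-only peaks, 2 of them with no treated peak inside, and none in the windows. When the chromosomes were divided into consecutive tiles of 103 kb, 10264 tiles held an H3K4me3 peak in either list. Of these, 608 (5.92%) had treated but no untreated peaks, and 3 (0.0292%) had at least 3 treated and no untreated peaks. The minimum of 3, for groups and tiles, equals the Pax7 count, which was already known, so these numbers are a description. The tiles cover the genome with and without genes. The 3 Pax7 peaks covered 2948 bp, and 130 of the tiles (1.27%) had at least as large an excess of treated over untreated bases. The widest peak in either list was 9151 bp. In the 0.2 kb bins from 8800 and 9000 bp, 1 of 1 and 2 of 2 treated peaks had no untreated partner. Of untreated peaks in the same bins, 2 of 5 and 0 of 4 had no treated partner. In the bins from 8200, 8400 and 8600 bp, 1 of 5, 1 of 5 and 1 of 6 treated peaks had no untreated partner. Of untreated peaks there, 0 of 5, 1 of 8 and 2 of 8 had no treated partner. Most peaks in these 3 bins were thus shared. A single untreated domain over the 12.6 kb of the Pax7 group would be wider than the widest listed peak. Whether the lists leave out such domains was not tested.

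**Figure D1:**
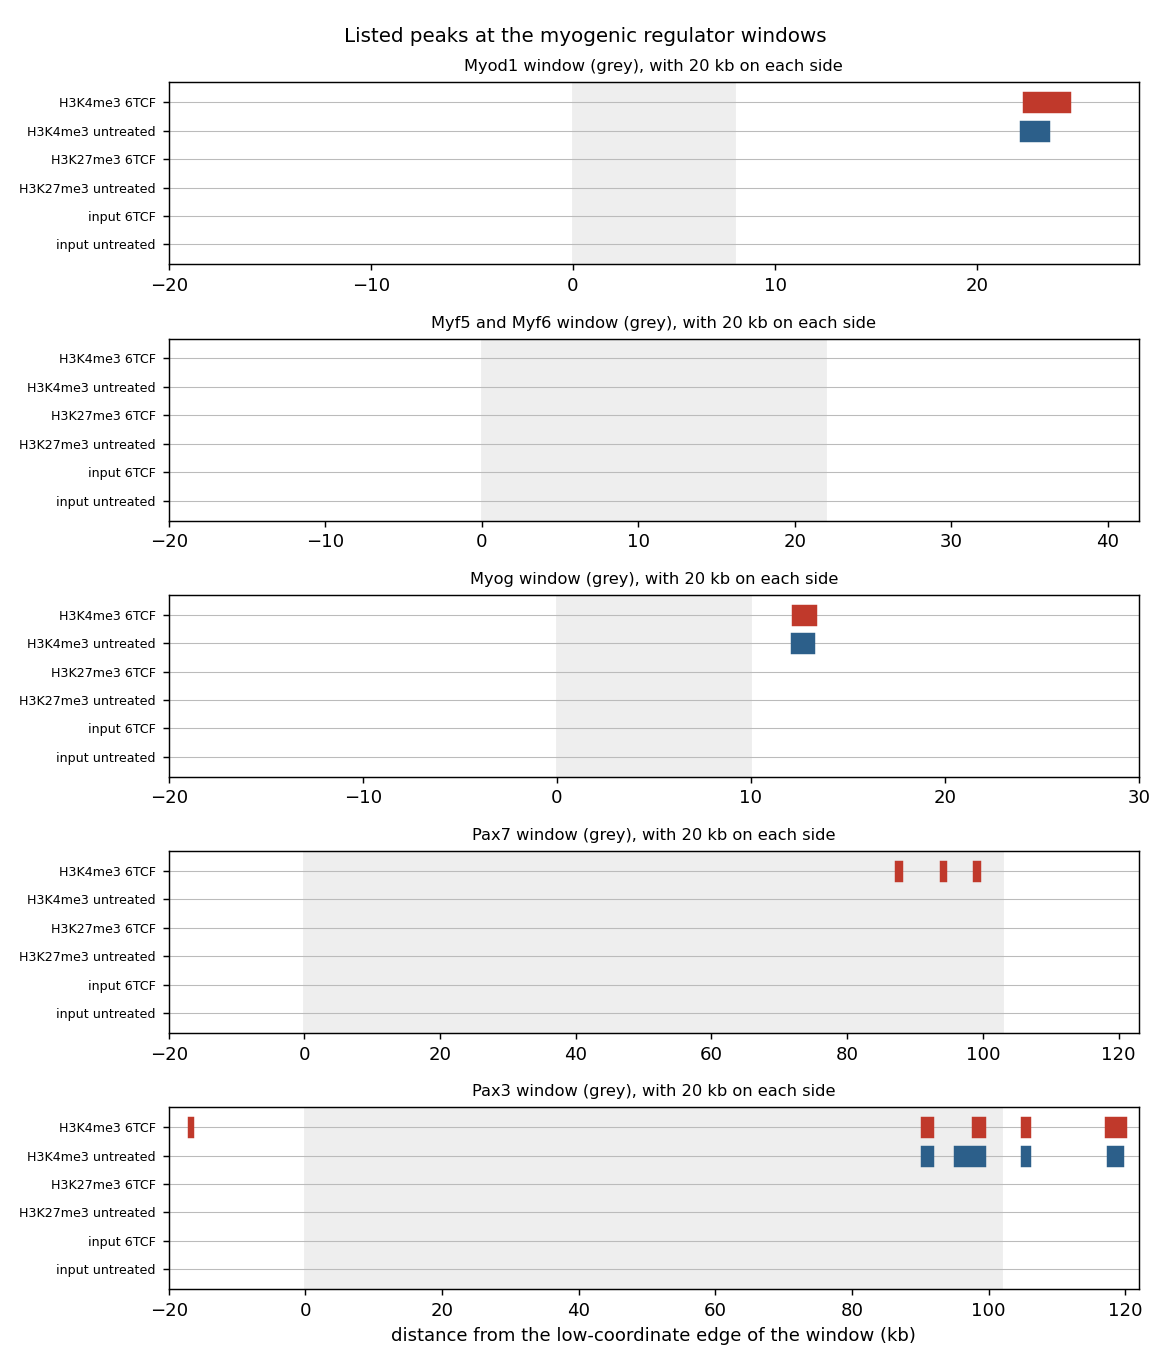
Listed peaks (bars) in the 6 libraries over each window (grey) and 20 kb on either side, plotted as kb from the low-coordinate edge of the window, with treated H3K4me3 peaks in red and untreated ones in blue. Peaks inside a window are seen at Pax7 in treated cells, and at Pax3 in both conditions, and the H3K27me3 and input rows are empty.

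At Pax3 both lists held 2 H3K4me3 peaks in the same places, and the one closer to the high-coordinate edge was narrower in treated cells. This peak ran from 78192526 to 78194412 (1887 bp) on chromosome 1 in the treated list and from 78189947 to 78194404 (4458 bp) in the untreated list. The untreated peak was 2.36-fold wider, a log2 ratio of treated to untreated width of -1.24. The ends were only 8 bp apart, while the treated start lay 2579 bp further in, so nearly all of the difference was on the low-coordinate side. No treated peak was listed over the 2579 bp in which the untreated peak extended beyond the treated one.

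The other Pax3 peak was nearly the same in both lists. The treated one ran from 78185057 to 78186832 (1776 bp) and the untreated one from 78185140 to 78186831 (1692 bp), a log2 ratio of 0.07. All Pax3 peaks in the window had a partner in the other list, which is the usual state: 4.73% of all untreated peaks had no treated partner. Within 10% of the Pax3 widths, 2.28% and 1.8% of treated peaks and 2.12% and 0.539% of untreated peaks had none. Over the window, treated H3K4me3 peaks covered 3663 bp and untreated ones 6150 bp. In the plot of the high-coordinate ends of both Pax windows, the Pax3 peaks are wider than the Pax7 peaks in every library that lists them.

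**Figure D2:**
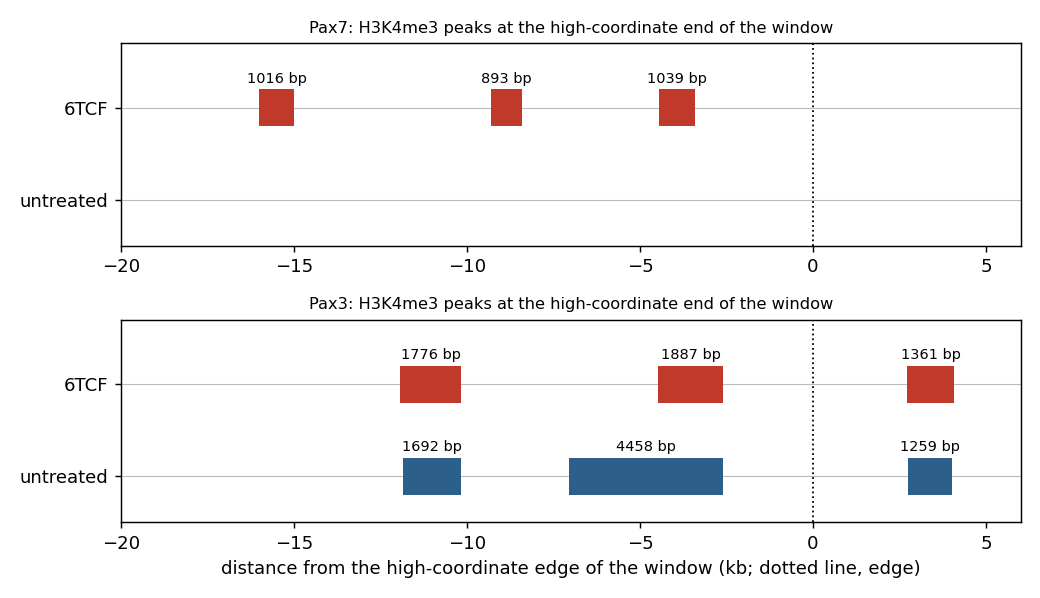
H3K4me3 peaks of the treated (red) and untreated (blue) library near the high-coordinate edge of the Pax7 and Pax3 windows, as kb from that edge (dotted line), with each peak's width. Pax7 has 3 treated peaks of 893 to 1039 bp and no untreated one, and at Pax3 the untreated peak of 4458 bp faces a treated peak of 1887 bp that ends at nearly the same place.

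The ratio of the narrowed Pax3 peak was set beside the 16153 pairs of the 2 lists, where a pair joins 1 H3K4me3 peak from each list and neither of them meets a further peak. Across these pairs, which are not replicates, the log2 width ratio had a median of -0.02 and a standard deviation of 0.33. At least 2-fold wider in untreated cells were 84 pairs (0.520%), at least 2-fold wider in treated cells were 183 (1.13%), and 41 pairs (0.254%) had a ratio as low as that of the Pax3 peak. For the 913 pairs whose untreated width was within 10% of 4458 bp, the median was somewhat lower, -0.10. These pairs were picked by the denominator of the ratio, so this median is no measure of wide peaks as such. Of these, 3 (0.329%), the Pax3 pair included, were as low. The nearly equal Pax3 pair lay in the middle of the distribution, since 64.9% of pairs had a ratio at or below its own, and 46.8% of all pairs were wider in treated cells.

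**Figure D3:**
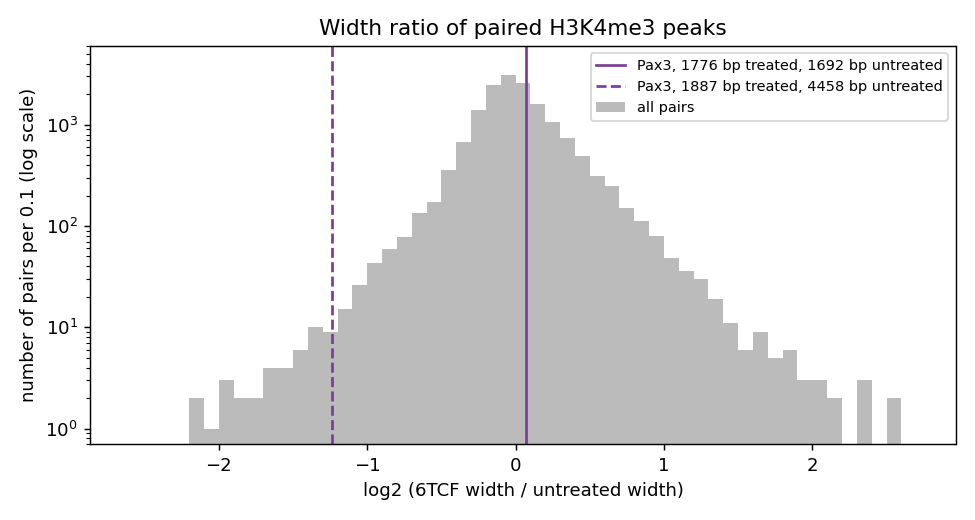
Number of H3K4me3 pairs (log scale) by log2 ratio of treated to untreated width in steps of 0.1, with both Pax3 pairs marked by vertical lines. The pair at -1.24 stands in the left tail and the pair at 0.07 near the centre of all 16153 pairs.

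In width the Pax3 peaks ranked higher in their own lists than the Pax7 peaks. The narrowed peak was wider than 93.4% of untreated peaks but wider than 44.8% of treated peaks. The other Pax3 peak stood at 35.5% in untreated and 40.7% in treated cells. For tiles of 102 kb, the length of the Pax3 window, 127 of 10327 with an H3K4me3 peak (1.23%) had a treated minus untreated difference in covered bases as low as the -2487 bp of Pax3. Pax7 and Pax3 thus moved in opposite directions in covered bases, with 2948 against 0 bp at Pax7 and 3663 against 6150 bp at Pax3, treated value first. With 1 library per group, neither difference nor the contrast between the genes has a replicate check. Over all 5 windows, treated peaks covered 6611 bp (2.7%) and untreated peaks 6150 bp (2.51%).

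**Figure D4:**
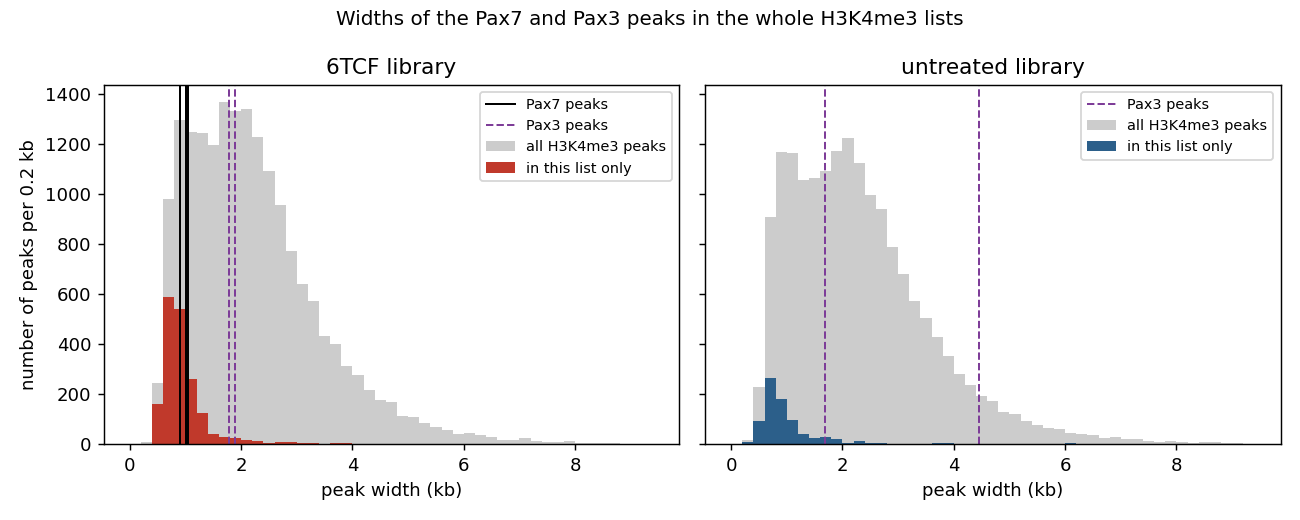
Number of H3K4me3 peaks per 0.2 kb of width in the treated (left) and untreated (right) library, for all peaks (grey) and for peaks in that list only (colour), with the widths of the Pax7 (solid) and Pax3 (dashed) peaks as vertical lines. The 3 Pax7 lines fall at the narrow end, in the bins from 800 to 1200 bp, which hold 541 and 259 treated-only peaks, against 588 in the bin from 600 to 800 bp, and the 4458 bp untreated Pax3 peak falls in the upper tail.

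Myod1, Myf5, Myf6 and Myog had no H3K4me3 peak in either condition. For windows of these sizes this is the usual state: 92.9% of 8 kb tiles (Myod1), 85.1% of 22 kb tiles (Myf5 and Myf6) and 91.7% of 10 kb tiles (Myog) had none in either list. The tiles cover the genome with and without genes, so they do not show how often a promoter lacks a peak. For Myf5 and Myf6 the nearest H3K4me3 peak was 205 kb away in treated and 206 kb in untreated cells, on the low-coordinate side. On the high-coordinate side it was 612 and 660 kb away. Thus the region around these 2 genes had no listed H3K4me3 peak in either condition well beyond the window itself.

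Within 20 kb outside the windows, a peak near Myod1 was wider in treated cells and a treated peak near Pax3 was unshared. The other pairs there had log2 width ratios of 0.00 to 0.30. Beyond the high-coordinate edge of the Myog window, 2.14 and 2.06 kb away, the treated list held a peak of 1225 bp (136195139 to 136196363) and the untreated list one of 1222 bp. Ppfia4 is the next gene on that side of Myog in the RefSeq order of GRCm38.p6, and the peak was assigned to neither gene. Past the Myod1 window, 14.3 kb away in treated and 14.1 kb in untreated cells, was a peak found in both lists. Its treated width was 2284 bp (53651281 to 53653564) and its untreated width 1455 bp, a 1.57-fold difference. The log2 ratio was 0.65, beside a standard deviation of 0.33 across all pairs. In the same order the next gene on that side of Myod1 is Kcnc1, a potassium channel gene.

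Next to the Pax3 window, 2.72 kb past its high-coordinate edge, was a peak with a treated width of 1361 bp (78199719 to 78201079) and an untreated width of 1259 bp. A second peak, 15.1 kb past the edge, measured 2950 bp in the treated list against 2403 bp. Unlike the narrowed peak inside the window, both were a little wider in treated cells, with log2 ratios of 0.11 and 0.30. A treated-only peak of 734 bp (78077901 to 78078634) lay 16.4 kb before the low-coordinate edge, where the nearest untreated peak was 581 kb from the window. Of all treated peaks of 600 to 800 bp, 588 of 977 had no untreated partner, so an unshared peak of this width was common. No H3K4me3 peak lay within 20 kb of the Pax7 window on either side.

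No H3K27me3 peak was listed in any of the 5 windows, in treated or untreated cells, and no input peak either. The H3K27me3 lists were short, with 821 treated and 1242 untreated peaks, beside 604 and 740 in the input lists. No H3K27me3 peak is the usual state for windows of these sizes. The H3K27me3 peaks nearest to the windows on each side were 94 to 1270 bp wide. Most of them were narrower than the 600 bp mean length of the sheared chromatin. Whether such lists capture broad H3K27me3 domains was not tested. An H3K27me3 peak of either condition was in 0.481% of 8 kb tiles, 0.589% of 10 kb tiles, 1.25% of 22 kb tiles, 5.32% of 102 kb tiles and 5.42% of 103 kb tiles. Among tiles with an H3K4me3 peak in either list, the share was 10.6% at 102 kb and 10.9% at 103 kb, the lengths of the Pax3 and Pax7 windows. The closest H3K27me3 peak to a window was an untreated peak of 1270 bp (chromosome 1, 78306735 to 78308004), 110 kb past the Pax3 window, where the nearest treated one was 3.65 Mb away. The nearest treated H3K27me3 peak to the Myod1 window was 333 kb away and the nearest untreated one 541 kb. Around Pax7 these distances were 1.18 Mb in treated and 1.53 Mb in untreated cells, and around Myog 0.808 and 1.52 Mb. For Myf5 and Myf6 they were 0.954 and 8.09 Mb. The lists were short and of unequal length, and no usual spacing was computed. These distances are therefore not read as a difference between conditions. The nearest input peak to any of the 7 member peaks was 0.356 Mb away, so none of the members coincided with a listed input peak.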

How the data were processed

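The authors deposited 1 peak list per library, 6 in all, with 1 library per group; each row gives a chromosome, start, end and constant strand sign, with no height, score or read number. Per the labels' protocols, formaldehyde-fixed chromatin had a mean length of 600 bp after shearing. The build mm9 and the tools MACS 1.4.3, HOMER, Bowtie2 2.2.5 and CASAVA 1.7 are named, without role or order, per the submitters' processing notes; the calling threshold is not given in the sources used here, nor is the control. Starts were read as 0-based and are printed 1-based. Overlaps, widths, pairs and tiles (chromosomes 1 to 19, X and Y, up to the last listed peak) were computed with Python 3.11.15 and numpy 2.4.6. The number of peaks in the windows was checked against bedtools 2.31.1. Counts of peaks in 1 list only and of 2-fold wider pairs were tested on a simulated treated list. Tile and group counts had neither check. Peaks of opposite conditions with at least 1 bp in common were counted as shared. All 6 genes are named, with every peak of their windows. Members and lists were chosen with earlier results of these data known. With 1 library per group no test was made. Alternatives were a width minimum, a stricter overlap, removal of peaks that overlap an input peak, equal list lengths, wider windows, midpoints and joined peaks.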

Additional observations from a re-analysis of the deposited data

How the results depend on the processing

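Of 126 values recomputed under 7 alternatives, 123 stayed close to the reported value, meaning within 1.5 times, or for log2 width ratios within the standard deviation across all pairs, and 3 did not. All 3 came from windows widened by 10 kb on each side, which take in the peaks beside Pax3 and Myog: the untreated windows then held 4 H3K4me3 peaks in place of 2, and the Myog window had 1225 bp covered in treated and 1222 bp in untreated cells in place of 0. The treated windows held 7 peaks in place of 5 under that setting, and the number of treated-only peaks stayed at 3. With only peaks of at least 1000 bp, the Pax7 window kept 2 treated peaks, which covered 2055 bp. The number of treated-only peaks then fell from 3 to 2, which is at the limit of 1.5 times and was counted as close. Many of the values could not change by construction, so the number that stayed close is a weak check. Filters cannot raise the H3K27me3 count of 0 or the covered bases of windows that held no H3K4me3 peak. Settings that keep a pair's peaks as they are cannot change its width ratio. Wider windows held no H3K27me3 peak either, but the closest one was 110 kb from a window, beyond the 10 kb added. Joining peaks up to 1 kb apart left the log2 width ratio of the narrowed Pax3 peak at -1.24. No other H3K4me3 peak lay that close to either peak of the pair, so neither setting could change these results. No alternative replaces a second library. Depth is unknown, and the lists hold no score by which a stricter threshold could be set, so width stood in for it. No paired analysis was possible because each group has 1 library.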
